A study of Mus musculus with 12 samples.

Results

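The neurotrophins and related trophic factors were followed in mouse brain through 9 genes, chosen by name as rows of the deposited count table, which holds 21956 genes. They are the secreted factors Bdnf, Ntf3, Gdnf, Lif and Cntf, the granin-like secretory protein Vgf, and the receptors Ntrk2, Ntrk3 and Ngfr, and all 9 were found once in the table. RNA was taken 48 h after intracerebral hemorrhage (ICH) from tissue around the hematoma, or from the matching tissue of sham mice, in 4 groups of 3 libraries. ICH was made by injecting collagenase into the right striatum, and sham mice had the same surgery without the enzyme. The groups were Sham-Fabp4fl/fl, Sham-Fabp4CKO, ICH-Fabp4fl/fl and ICH-Fabp4CKO. All mice carried floxed Fabp4, which encodes a fatty acid-binding protein, and the CKO mice in addition carried a tamoxifen-inducible Cre under Tmem119, a microglial gene, and were given tamoxifen before surgery. The sources used here do not say whether the Fabp4fl/fl mice received tamoxifen, nor give the age of these groups, and genotype therefore cannot be told apart from Cre or tamoxifen. The labels do not say that each library is a separate animal, so that p-values measure the spread between libraries, which may in part be technical.

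Neurotrophins are secreted as precursors, cut by proprotein convertases or extracellular proteases, and bound by Trk receptor tyrosine kinases and by the p75 receptor. BDNF signals through TrkB (Ntrk2) and neurotrophin-3 mainly through TrkC (Ntrk3), while p75 (Ngfr) binds all neurotrophins and their precursors. In the adult striatum, most BDNF protein is made by cortical neurons and delivered along their axons, and Ngfr is best known in basal forebrain cholinergic neurons. LIF and CNTF belong to another family, the cytokines that signal through the shared receptor gp130 and STAT3, and GDNF signals through GFRα1 and Ret. VGF is a neuronal secretory granule protein that neurotrophins induce.

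The libraries held 15650813 to 22406216 counts. The mitochondrial share was 16.3% in ICH-Fabp4fl/fl replicate 1 and at most 11.9% elsewhere. In ICH-Fabp4CKO replicate 1, 4 Y-linked genes had 1 count together, against 1302 or more in each other library. Those of the 9 genes that lose their call without that library are named below. Without it, 1583 of all genes were called after ICH in Fabp4CKO, against 5247 with it (edgeR). Leaving out 1 Sham-Fabp4CKO library instead gave 751 to 847 calls. Without ICH-Fabp4CKO replicate 2 there were 10099, and without replicate 3 there were 3047. Which other genes named below keep their call without ICH-Fabp4CKO replicate 1 was not checked. Fabp4 itself had 46, 63 and 24 counts in ICH-Fabp4fl/fl and 5, 3 and 10 in ICH-Fabp4CKO, and at most 2 in any sham library. The 8 neuronal markers that were checked were counted in all 12 libraries, their sum falling between 4801 and 6258 CPM (counts scaled to library size with edgeR's TMM factors) in sham and between 1401 and 4240 after ICH. Over all tested genes, 26.2% were higher and 19.3% lower after ICH in Fabp4fl/fl (edgeR, adjusted p under 0.05). In Fabp4CKO these shares were 24.5% and 11.1%, and the counts of marker genes stand beside them. Of the other marker lists (Fabp4fl/fl first, then Fabp4CKO), microglia had 7 and 7 of 8 genes higher after ICH, endothelial cells 8 and 4 of 8, and mural cells and fibroblasts 8 and 7 of 8. Astrocytes had 2 and 2 of 8 higher and 1 and 0 lower, oligodendrocytes 2 and 0 of 8 higher and 0 and 1 lower, and Schwann cells 1 and 2 of 4 tested higher. Markers of monocytes and macrophages summed to at most 8.996 CPM in any sham library and at least 126.5 CPM in any ICH library, and those of neutrophils to at most 1.84 and at least 17.0 CPM. Neurons had 7 and 1 of 8 lower and striatal projection neurons 0 and 3 of 9 lower. The median log2 fold changes were -1.19 and -1.16 for the neuronal markers and -0.43 and -1.12 for the striatal ones. The counts of called neuronal markers thus differed more between the genotypes than the medians did. In such bulk tissue, fewer cells of a type and less RNA per cell cannot be told apart.

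Per kilobase of merged exons, the levels in sham tissue ran over more than 2 orders of magnitude. In Sham-Fabp4fl/fl, Vgf was highest at a mean of 62.2 CPM per kb, followed by Ntrk2 at 41.2. Ntrk3 (4.72) and Ngfr (4.58) came next on the same scale and could not be ordered within their spread. The secreted factors lay lower, with Bdnf at 1.38, Cntf at 1.18, Ntf3 at 0.847, Gdnf at 0.817 and Lif lowest at 0.135 CPM per kb. The ranges of Bdnf, Cntf, Ntf3 and Gdnf were wide enough that their order is not settled by 3 libraries. After ICH the order of the means was different. Cntf averaged 8.17 CPM per kb in ICH-Fabp4fl/fl and 5.03 in ICH-Fabp4CKO, above Ntrk3 (1.81 and 2.07) and Ngfr (3.89 and 1.4). In ICH-Fabp4CKO the mean of Ntrk2 (34.1) was above that of Vgf (28.4), an order that their spread does not settle. Lif averaged 1.35 CPM per kb in ICH-Fabp4fl/fl and 2.29 in ICH-Fabp4CKO, above Bdnf (0.753 and 0.722) in both. In ICH-Fabp4fl/fl the coefficient of variation of Bdnf was 106%, so that the order of Lif and Bdnf is not settled there. Lengths were taken from a mouse annotation that may differ from the one used by the authors.

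**Figure D1:**
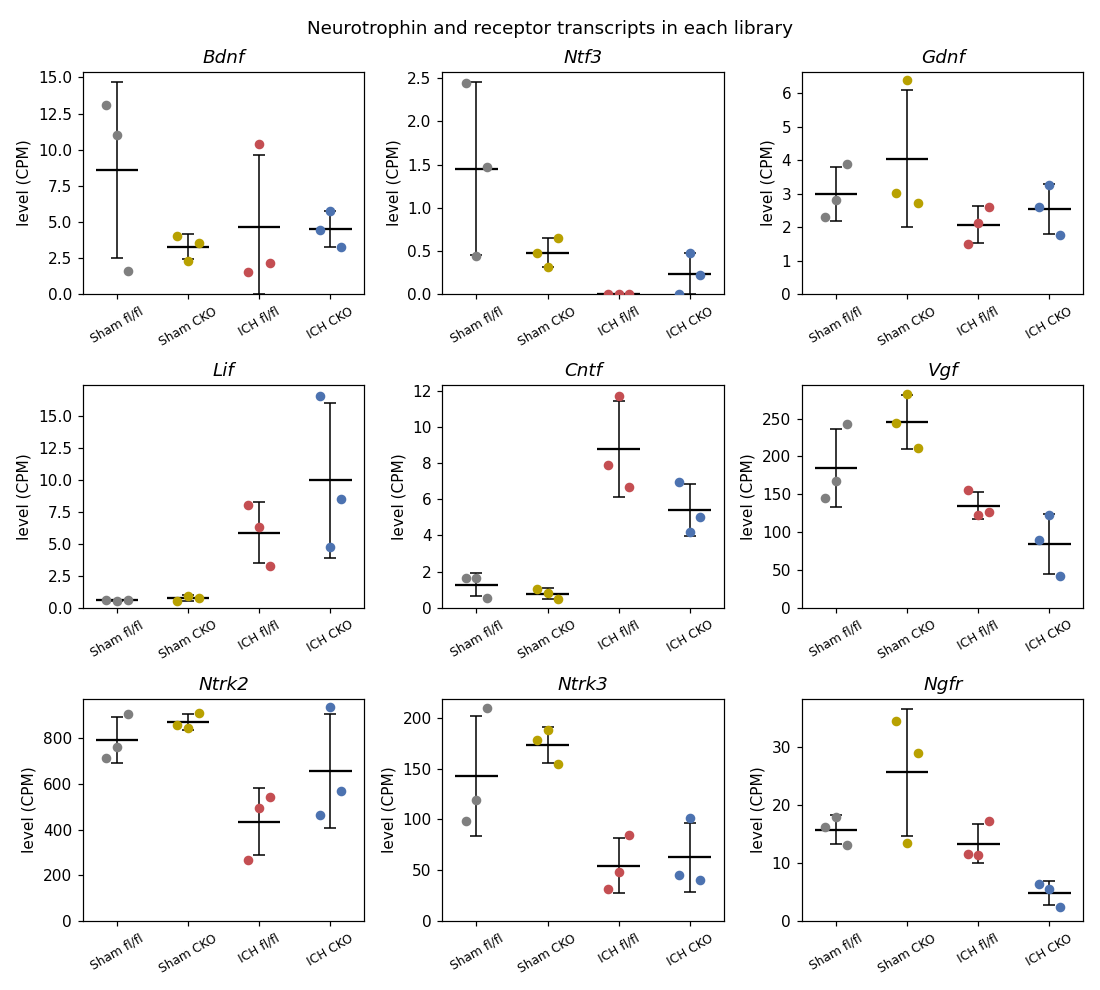
Level of each of the 9 genes in CPM (vertical axis, linear, starting at 0) in each library (points, replicates 1 to 3 from left to right) of the 4 groups, with the group mean (bar) and SD (error bar, cut off at 0). Lif and Cntf stand above both sham groups in all 6 ICH libraries, Ntf3 is at 0 in ICH-Fabp4fl/fl, and Ngfr is lowest in ICH-Fabp4CKO.

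ICH was first compared with sham within each genotype. Lif and Cntf rose in both genotypes, and Ntrk3 fell in both. Ntrk2 passed the test only in Fabp4fl/fl mice, and Ngfr and Vgf only in Fabp4CKO mice, but none of these differences between genotypes passed edgeR's test of the difference itself, while that of Ngfr passed with DESeq2. Bdnf and Gdnf passed in neither. Of the 8 genes tested in Fabp4fl/fl (Ntf3 did not pass the filter on low counts), 2 were called higher and 2 lower (Benjamini-Hochberg adjusted p under 0.05 over all genes, from the quasi-likelihood F-test of edgeR), where 26.2% of all 14719 tested genes were higher and 19.3% lower. For 4 of the 8, every ICH library lay on the same side of every sham library, against 62.0% of all genes. In Fabp4CKO, 2 of 8 were higher and 3 lower, where 24.5% of 14737 genes were higher and 11.1% lower, and 5 of the 8 had no overlap, against 62.4%. With so few genes, these shares do not set the group apart from the rest of the transcriptome. The median log2 fold change of the 8 was -0.47 in Fabp4fl/fl and -0.52 in Fabp4CKO, against 0.02 and 0.01 over all genes tested.

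**Figure D2:**
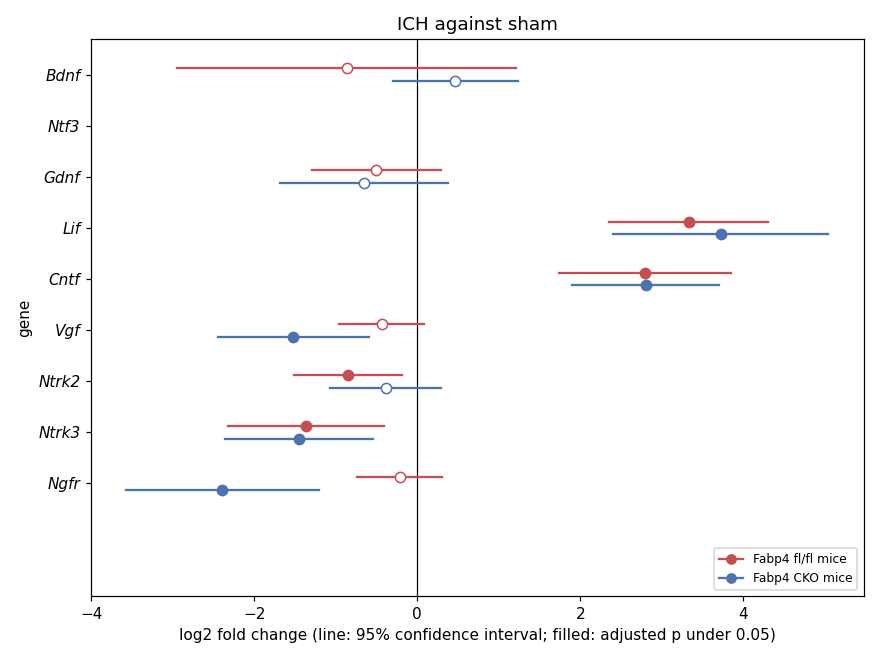
Log2 fold change of ICH against sham (horizontal axis) with its 95% confidence interval (line) for each gene in Fabp4fl/fl (red) and Fabp4CKO mice (blue), filled where the adjusted p was under 0.05. Lif and Cntf lie at 2.79 to 3.72 in both genotypes, and Ntf3 has no point because it did not pass the filter on low counts.

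Lif, the leukemia inhibitory factor, was near the detection limit in sham tissue, at 0.574, 0.552 and 0.631 CPM in Sham-Fabp4fl/fl (10 to 12 counts) and 0.520, 0.953 and 0.796 CPM in Sham-Fabp4CKO. It reached 8.08, 6.29 and 3.29 CPM in ICH-Fabp4fl/fl and 16.6, 4.75 and 8.55 CPM in ICH-Fabp4CKO. Each ICH library thus lay above each sham library, with up to 255 counts in ICH-Fabp4CKO replicate 1. This was a log2 fold change of 3.33 in Fabp4fl/fl (standard error 0.42, quasi-likelihood adjusted p = 0.00111), a 10.1-fold rise, and 3.72 in Fabp4CKO (standard error 0.55, adjusted p = 0.00787), a 13.2-fold rise. In Fabp4CKO the adjusted p was 0.0507 without Sham-Fabp4CKO replicate 3 and 0.0264 without ICH-Fabp4CKO replicate 1.

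Cntf encodes ciliary neurotrophic factor, a cytokine without a classical signal peptide. It was at 1.63, 1.66 and 0.526 CPM in Sham-Fabp4fl/fl and at 7.88, 11.7 and 6.70 CPM in ICH-Fabp4fl/fl. In the knockout it went from 1.04, 0.817 and 0.468 CPM in sham to 6.97, 4.21 and 4.99 CPM after ICH. Again no ICH library overlapped a sham library of either genotype. The log2 fold changes were nearly equal, 2.79 in Fabp4fl/fl (standard error 0.45, quasi-likelihood adjusted p = 0.00306) and 2.80 in Fabp4CKO (standard error 0.37, adjusted p = 0.00662). In each genotype, sham replicate 3 had 10 counts, which at its depth lay just under the cutoff of the filter on low counts. The gene thus passed this filter only through its ICH libraries. Cntf lies inside the locus of Zfp91 on the same strand, and in 7 of the 12 libraries its deposited count was not a whole number, so that some of its reads may have been shared between these genes. Zfp91 was far higher, at 131 to 186 CPM, and its own log2 fold change was 0.21 in Fabp4fl/fl (adjusted p = 0.321) and 0.16 in Fabp4CKO (adjusted p = 0.338, quasi-likelihood test).

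Lif and Cntf are shown with their promoters because they were the genes that rose in both genotypes and both windows hold the AP-1 element TGACTCA, the binding motif of Fos and Jun dimers. The sequences are the 250 bases before the RefSeq transcription start on GRCm38.p6, written 5′ to 3′ along the gene's strand, with the AP-1 element in capitals. The Lif window is chr11:4257318-4257567 on the plus strand and the Cntf window chr19:12765633-12765882 on the minus strand.
Lif: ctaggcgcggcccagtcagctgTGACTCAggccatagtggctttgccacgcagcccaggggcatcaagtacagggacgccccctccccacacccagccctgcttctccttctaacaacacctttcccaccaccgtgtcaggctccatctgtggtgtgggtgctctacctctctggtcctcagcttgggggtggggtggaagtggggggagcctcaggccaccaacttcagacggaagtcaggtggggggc
Cntf: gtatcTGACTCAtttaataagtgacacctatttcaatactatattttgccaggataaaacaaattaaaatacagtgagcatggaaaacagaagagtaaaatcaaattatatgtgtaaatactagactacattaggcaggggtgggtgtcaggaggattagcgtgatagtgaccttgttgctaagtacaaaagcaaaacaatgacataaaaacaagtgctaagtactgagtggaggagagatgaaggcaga
The element begins 228 bases before the start in Lif and 245 bases before it in Cntf. Promoter windows of 300 bases (250 before and 50 after the start) were found for 7 of the 9 genes, 15 windows in all, with none in the table for Vgf and Ntrk3. TGACTCA, searched on both strands, occurred in the windows of 2 of these 7 genes, Lif and Cntf. It was in 5.20% of all 32851 mouse windows searched, which left out 1 chromosome. Such shares are per window, so that a gene with several windows had more places for a match. The cAMP response element TGACGTCA was in none of the 7 genes' windows (1.79% of all windows). The STAT element TTCNNNGAA (8.30% of all) and the interferon-stimulated response element (3.44% of all) were each found for 1 of the 7 genes, Bdnf. A match describes these letters in this window only.

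Ntrk2, the TrkB receptor, which astrocytes also express as a truncated form, was at 714, 762 and 906 CPM in Sham-Fabp4fl/fl and 267, 495 and 544 CPM in ICH-Fabp4fl/fl, without overlap. It was at 861, 845 and 913 CPM in Sham-Fabp4CKO and 466, 939 and 568 CPM in ICH-Fabp4CKO, where replicate 2 stood above all 3 sham libraries. After ICH, Ntrk2 had a log2 fold change of -0.85 in Fabp4fl/fl (standard error 0.28, quasi-likelihood adjusted p = 0.0418) and -0.39 in Fabp4CKO (95% confidence interval -1.07 to 0.29, adjusted p = 0.286). The call in Fabp4fl/fl was lost when any 1 sham library or ICH replicate 2 was left out (adjusted p 0.0668 to 0.0964), and without ICH-Fabp4CKO replicate 2 Ntrk2 passed in Fabp4CKO as well (log2 fold change -0.75, adjusted p = 0.00165). Within each ICH group, the order of the libraries followed their summed markers of astrocytes, which were 1706, 3100 and 3982 CPM in ICH-Fabp4fl/fl and 3014, 5381 and 3594 CPM in ICH-Fabp4CKO. The part of these markers in the Ntrk2 values was not tested.

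Ntrk3, the TrkC receptor, fell in both genotypes. Its levels were 98.9, 119 and 209 CPM in Sham-Fabp4fl/fl, 31.3, 47.8 and 84.4 CPM in ICH-Fabp4fl/fl, 178, 188 and 154 CPM in Sham-Fabp4CKO and 45.3, 102 and 40.6 CPM in ICH-Fabp4CKO. No ICH library overlapped the sham libraries of its genotype. Ntrk3 had a log2 fold change of -1.37 in Fabp4fl/fl (standard error 0.41, quasi-likelihood adjusted p = 0.0302) and -1.45 in Fabp4CKO (standard error 0.38, adjusted p = 0.0314), 2.58-fold and 2.73-fold lower. As for Cntf, the deposited Ntrk3 count was not whole in 7 of the 12 libraries, and its locus overlaps Gm39038 and Gm44607 on the same strand. The calls were close to the threshold. In Fabp4fl/fl the call was lost without sham replicate 2 or 3 or ICH replicate 1 or 2 (adjusted p 0.0539 to 0.0979), and in Fabp4CKO without any 1 library except ICH-Fabp4CKO replicate 2 (adjusted p 0.0618 to 0.102). Summed neuronal markers were 1529, 2346 and 3229 CPM in ICH-Fabp4fl/fl and 1982, 4240 and 1401 CPM in ICH-Fabp4CKO, the same order as Ntrk3 in each group, and their part in its fall was not tested.

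Ngfr, the p75 receptor, had the largest fold difference between the genotypes after ICH of the 8 genes tested. It was at 16.2, 18.0 and 13.1 CPM in Sham-Fabp4fl/fl and 11.6, 11.4 and 17.2 CPM in ICH-Fabp4fl/fl, which overlap (log2 fold change -0.22, 95% confidence interval -0.74 to 0.30, adjusted p = 0.444, quasi-likelihood test). In the knockout it went from 34.6, 13.4 and 29.0 CPM in sham to 6.45, 5.60 and 2.44 CPM after ICH, where all 3 libraries lay below every other library of the series. In Fabp4CKO it fell by 2.39 on the log2 scale, or 5.25-fold (standard error 0.49, quasi-likelihood adjusted p = 0.0170). Without Sham-Fabp4CKO replicate 1 or 3, or without ICH-Fabp4CKO replicate 1, the adjusted p was 0.0510 to 0.0687, with log2 fold changes of -2.67 to -2.12. In these ICH-Fabp4CKO libraries the summed neuronal markers were 1982, 4240 and 1401 CPM, so that the lowest Ngfr was found with the lowest sum and the highest Ngfr was not found with the highest. The 5 markers of Schwann cells, which also express p75, summed to 69.9 to 81.9 CPM in Sham-Fabp4CKO and 43.95 to 74.3 CPM in ICH-Fabp4CKO. The part of either cell type in the Ngfr values was not tested, and no markers of cholinergic neurons were listed.

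Bdnf, the brain-derived neurotrophic factor, varied widely between libraries of the same group in Fabp4fl/fl mice. In Sham-Fabp4fl/fl it was at 13.1, 10.99 and 1.63 CPM, and in ICH-Fabp4fl/fl at 1.51, 10.4 and 2.13 CPM. Sham-Fabp4CKO held 4.02, 2.31 and 3.56 CPM and ICH-Fabp4CKO 4.43, 5.76 and 3.27 CPM. The coefficient of variation was 71.2% and 106% in the Fabp4fl/fl groups and 26.8% and 27.7% in the Fabp4CKO groups. Bdnf had a log2 fold change after ICH of -0.87 in Fabp4fl/fl (95% confidence interval -2.95 to 1.21, adjusted p = 0.445, quasi-likelihood test) and 0.46 in Fabp4CKO (-0.30 to 1.23, adjusted p = 0.262), and both intervals include a rise of more than 2-fold. In Fabp4fl/fl the value rested on single libraries, at -2.25 without ICH replicate 2 (adjusted p = 0.0986), -1.41 without sham replicate 3 and -0.46 to -0.51 without sham replicate 1 or ICH replicate 1 or 3. The 8 markers of cortical excitatory neurons summed to 397 and 548 CPM in Sham-Fabp4fl/fl replicates 1 and 2, the libraries with the highest Bdnf, and to 101 CPM in replicate 3. Striatal projection neuron markers in the same libraries summed to 1798, 2108 and 5878 CPM, so that the sham libraries differed in how much cortical and striatal RNA they held. ICH-Fabp4fl/fl replicate 2 did not follow this pattern, with 10.4 CPM of Bdnf beside 18.9 CPM of cortical markers.

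Ntf3, neurotrophin-3, was not counted at all after ICH in Fabp4fl/fl mice. Sham-Fabp4fl/fl libraries held 51, 8 and 28 counts (2.44, 0.442 and 1.47 CPM) and ICH-Fabp4fl/fl libraries 0, 0 and 0. Against a floor of 3 counts per ICH library, the mean of the sham libraries was thus at least 8.09-fold higher. That bound leaves out the spread of the sham libraries, whose coefficient of variation was 68.9%. Ntf3 did not pass the filter on low counts in this comparison. Without the filter or with all 12 libraries in one fit, it was lower with an adjusted p of 0.00767 and 0.00480 (quasi-likelihood test). It also passed the filter without Sham-Fabp4fl/fl replicate 2 or any 1 ICH library (edgeR adjusted p 0.0117 to 0.0312), but not without sham replicate 1 or 3. When it passed with 1 library left out, it did so through its sham libraries alone. The p-values of all these fits rest on an ICH group with 0 counts, and they add nothing to the counts themselves. In the knockout it went from 10, 7 and 14 counts (0.473, 0.318 and 0.656 CPM) to 0, 9 and 4 counts (0, 0.480 and 0.222 CPM), with overlapping groups. There the adjusted p was 0.413 both without the filter and with all 12 libraries in one fit (quasi-likelihood test). Of the 8 cortical excitatory markers, 8 were lower after ICH in Fabp4fl/fl (median log2 fold change -3.19), against 19.3% of all genes. In Fabp4CKO 0 of 8 passed, where 24.5% of all genes were higher and 11.1% lower. Their sum was 18.3 to 56.1 CPM in the ICH-Fabp4fl/fl libraries and 98.7 to 484 CPM in ICH-Fabp4CKO. Ntf3 did not follow this sum everywhere. Sham-Fabp4fl/fl replicate 2 had the highest sum of its group (548 CPM) and the lowest Ntf3. From Sham-Fabp4CKO (86.3 to 153 CPM) to ICH-Fabp4CKO the sum did not fall, while mean Ntf3 went from 0.482 to 0.234 CPM. The part of these markers in the values of Ntf3 and Bdnf was not tested.

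**Figure D3:**
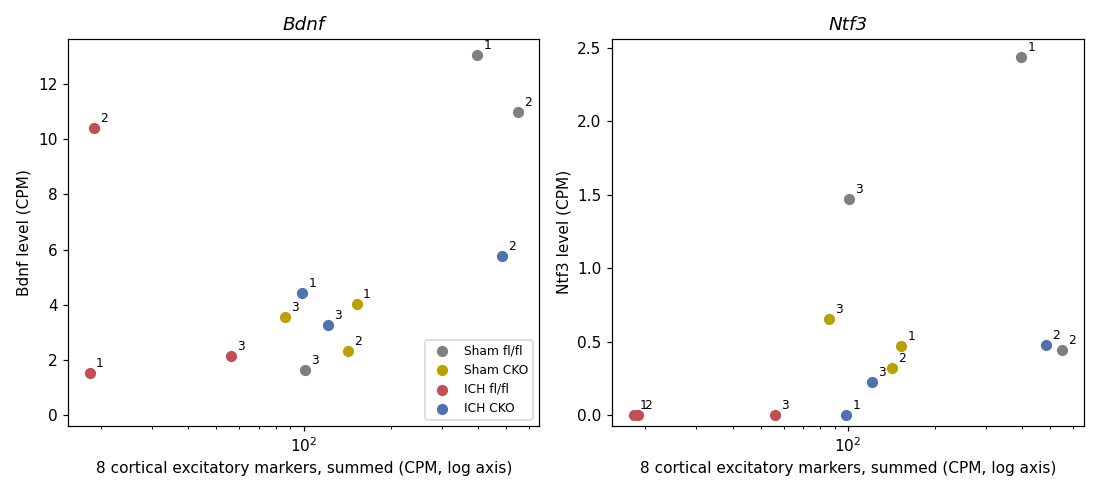
Level of Bdnf (left) and Ntf3 (right) in CPM (vertical axis, linear) against the summed level of 8 markers of cortical excitatory neurons in CPM (horizontal axis, log scale), 1 point per library, colored by group and numbered by replicate. The 3 ICH-Fabp4fl/fl libraries have the lowest marker sums, 18.3 to 56.1 CPM, and 0 counts of Ntf3, while 1 of them has 10.4 CPM of Bdnf.

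Gdnf, the glial cell line-derived factor, showed no change past the threshold. It was at 2.30, 2.82 and 3.89 CPM in Sham-Fabp4fl/fl, 1.51, 2.12 and 2.60 in ICH-Fabp4fl/fl, 3.03, 6.40 and 2.72 in Sham-Fabp4CKO and 2.61, 3.25 and 1.78 in ICH-Fabp4CKO. Gdnf had a log2 fold change of -0.51 in Fabp4fl/fl (95% confidence interval -1.30 to 0.29, adjusted p = 0.249, quasi-likelihood test) and -0.65 in Fabp4CKO (-1.68 to 0.38, adjusted p = 0.244). The groups overlapped in both genotypes, and with 23 to 141 counts per library both intervals include a fall of more than 2-fold.

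Vgf was the highest of the 9 per kilobase in sham. Its levels were 145, 168 and 243 CPM in Sham-Fabp4fl/fl and 155, 123 and 126 CPM in ICH-Fabp4fl/fl, where replicate 1 lay within the sham range. In the knockout it went from 244, 282 and 211 CPM in sham to 88.9, 122 and 42.4 CPM after ICH, without overlap. Vgf had a log2 fold change of -0.44 in Fabp4fl/fl (95% confidence interval -0.96 to 0.09, adjusted p = 0.145, quasi-likelihood test) and -1.52 in Fabp4CKO (standard error 0.38, adjusted p = 0.0295), a 2.87-fold fall. The call in Fabp4CKO was lost without any 1 sham library or without ICH replicate 1 (adjusted p 0.0811 to 0.0996). Summed neuronal markers were 1401 to 4240 CPM in ICH-Fabp4CKO, with the libraries in the same order as for Vgf. In ICH-Fabp4fl/fl, at 1529 to 3229 CPM, the order was not the same. The part of these markers in the Vgf values was not tested.

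The knockout was then compared with Fabp4fl/fl within ICH and within sham, which asks whether these genes differed between the genotypes. Loss of Fabp4 in microglia cannot be told apart from Cre or tamoxifen in these comparisons. None of the 9 genes passed in either comparison. After ICH, 0 of 8 tested genes had an adjusted p under 0.05, as did 0 (0%) of all 14600 genes, while 1 of the 8 and 1777 of all genes had an unadjusted p under 0.05. DESeq2 called 1 of the 8, where it called 3.96% of all genes. The gene in each case was Ngfr, with a log2 fold change of -1.48 in ICH-Fabp4CKO (standard error 0.40, 95% confidence interval -2.44 to -0.52, unadjusted p = 0.00876 and adjusted p = 0.316 from the edgeR test), a 2.79-fold lower level, and an adjusted p of 0.0218 with DESeq2. Ngfr and Vgf did not overlap between the genotypes after ICH, 2 of 8 genes against 19.8% of all genes. The summed markers of oligodendrocytes (19330 to 27420 CPM in ICH-Fabp4fl/fl and 7438 to 11870 in ICH-Fabp4CKO) and of endothelial cells (569 to 1190 and 308 to 424 CPM) did not overlap between these groups either, and their part in these values was not tested. Vgf had a log2 fold change of -0.68 (-1.59 to 0.23, adjusted p = 0.510, edgeR). Cntf, at -0.71 (-1.45 to 0.04, adjusted p = 0.427), and Lif, at 0.75 (-0.52 to 2.02, adjusted p = 0.593), pointed in opposite directions with overlapping libraries. For Bdnf the log2 fold change was -0.06 (-1.82 to 1.70, adjusted p = 0.982), an interval too wide to say that the genotypes were alike.

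In sham, 0 of 9 genes passed, against 0.111% of 14395 genes, and 0 of 9 were without overlap, against 14.9% of all genes. Ntf3 alone of the 9 had an unadjusted p under 0.05 (edgeR), as did 1471 of all genes. Its log2 fold change was -1.60 in Sham-Fabp4CKO (95% confidence interval -3.04 to -0.16, adjusted p = 0.481, edgeR). DESeq2 called 0 of the 9 and 1.04% of all genes. Without Sham-Fabp4fl/fl replicate 3, the library with few cortical markers, 3 of the 9 passed, as did 19.6% of all genes: Bdnf (log2 fold change -1.88, adjusted p = 0.00132), Ntrk3 (0.66, adjusted p = 0.00569) and Vgf (0.65, adjusted p = 0.00930, edgeR). These values rest on 2 Sham-Fabp4fl/fl libraries whose cortical markers, at 397 and 548 CPM, were above the 86.3 to 153 CPM of Sham-Fabp4CKO.

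The difference between genotypes in the change after ICH was tested as an interaction over all 12 libraries. Of the 9 genes, 0 passed, as against 0.0199% of 15089 genes, and 3 of the 9 and 1500 of all genes had an unadjusted p under 0.05. Ngfr fell more in the knockout by 2.21 on the log2 scale (95% confidence interval -3.41 to -1.004, unadjusted p = 0.00199, adjusted p = 0.264, edgeR), and Vgf by 1.13 (-2.16 to -0.10, adjusted p = 0.444). Ntf3 had an adjusted p of 0.344, and its estimate rests on the group with 0 counts. With DESeq2, 2 of the 9 passed, Ngfr (adjusted p = 0.0178) and Ntf3 (adjusted p = 0.0459), as did 1.76% of all genes. The intervals of Lif (-1.24 to 1.91), Cntf (-1.59 to 1.52), Ntrk2 (-0.47 to 1.32) and Ntrk3 (-1.41 to 1.19) include 0 and differences of more than 2-fold.

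**Figure D4:**
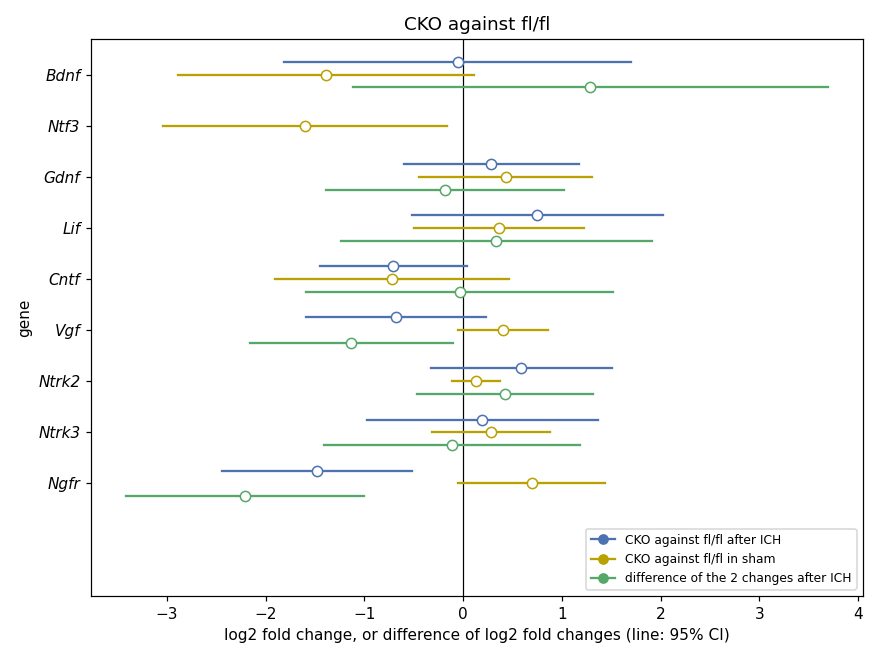
Log2 fold change of Fabp4CKO against Fabp4fl/fl after ICH (blue) and in sham (yellow), and the difference between the genotypes' changes after ICH (green), with 95% confidence intervals (lines). No point is filled because no adjusted p was under 0.05, and Ntf3 is drawn only for sham, since its other values rest on libraries with 0 counts.

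Genes of the same pathways were counted in 6 lists, whose counts stand beside 26.2% of all tested genes higher and 19.3% lower in Fabp4fl/fl and 24.5% higher and 11.1% lower in Fabp4CKO. Of 19 tested genes of neurotrophin signaling, 2 rose and 10 fell after ICH in Fabp4fl/fl and 2 rose and 8 fell in Fabp4CKO, with median log2 fold changes of -0.71 and -0.71. Those that rose most in Fabp4fl/fl were Nradd, a p75-like death domain gene (log2 fold change 2.42, adjusted p = 0.0130), and Shc1, a Trk adaptor (2.11, adjusted p = 0.000922), and those that fell most were the Nogo receptor Rtn4r (-2.88, adjusted p = 0.0176) and the sortilin-family receptor Sorcs3 (-2.40, adjusted p = 0.00344, quasi-likelihood test). In Fabp4CKO, Nradd (2.40, adjusted p = 0.00964) and Shc1 (2.48, adjusted p = 0.0128) rose too, while Rtn4r was at -0.08 (adjusted p = 0.910) and Sorcs3 at -1.46 (adjusted p = 0.109). Nradd had 6 to 22 counts in Sham-Fabp4fl/fl and passed the filter in that genotype only through its ICH libraries.

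Proneurotrophin processing was split, with 6 of 12 genes higher and 4 lower in Fabp4fl/fl and 5 higher and 1 lower in Fabp4CKO (medians 0.09 and 0.08). In Fabp4fl/fl the protease gene Mmp3 was among the 2 that rose most (log2 fold change 5.72, quasi-likelihood adjusted p = 0.00151). Mmp3 had at most 6 counts in any Sham-Fabp4fl/fl library and passed the filter only through its ICH libraries. The size of its rise is therefore poorly fixed. The intracellular convertases Pcsk1 (-2.54, adjusted p = 0.00248) and Pcsk5 (-1.94, adjusted p = 0.00240, quasi-likelihood test) fell most. In Fabp4CKO, the mean of Mmp3 after ICH was at least 101-fold above a floor of 3 counts per sham library (quasi-likelihood adjusted p = 0.0130). It passed the filter only through its ICH libraries, which held 65 to 359 counts, a spread that the bound leaves out. Furin, Pcsk7 and Mmp9 also rose in Fabp4CKO, Pcsk1 fell by 1.92 (adjusted p = 0.0296), and Pcsk5 was at -0.68 (adjusted p = 0.261).

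The gp130 cytokines and receptors, the family of Lif and Cntf, had 14 genes tested in both genotypes, of which 9 were higher in Fabp4fl/fl and 10 in Fabp4CKO and 0 were lower, with medians of 0.82 and 1.20. Il6 and Il11 were tested only in Fabp4CKO, where both passed the filter only through their ICH libraries. The sham libraries of Il6 lay at or under 3 counts there. With both included the median in Fabp4CKO was 2.01. The cytokine Osm (log2 fold change 5.46, adjusted p = 0.00411) and the STAT3 target Socs3 (5.27, adjusted p = 0.000350) rose most in Fabp4fl/fl and were at 5.57 (adjusted p = 0.00807) and 5.11 (adjusted p = 0.00478) in Fabp4CKO. Osm had at most 4 counts in any Sham-Fabp4fl/fl library and at most 5 in any Sham-Fabp4CKO library. In both genotypes Osm passed the filter only through its ICH libraries, so that the size of its rise is poorly fixed. The receptor subunits did not all move with the ligands, as seen for 3 subunits named here outside the rule for named genes. The shared subunit Il6st rose by 0.52 (adjusted p = 0.0332) and 0.80 (adjusted p = 0.0239) in the 2 genotypes. Lifr was at 0.33 (adjusted p = 0.289) and 0.25 (adjusted p = 0.320), and Cntfr, the CNTF-binding subunit, at -0.62 (adjusted p = 0.0986) and -0.81 (adjusted p = 0.0586, quasi-likelihood test).

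The GDNF family had 0 of 6 genes higher and 2 lower in Fabp4fl/fl, Gfra2 (log2 fold change -1.79, adjusted p = 0.000640) and the signaling receptor Ret (-1.03, adjusted p = 0.00803), and 1 lower in Fabp4CKO, the adhesion molecule Ncam1 (-0.88, adjusted p = 0.0445, quasi-likelihood test). In Fabp4CKO, Gfra2 was at -1.32 (adjusted p = 0.0796) and Ret at -1.40 (adjusted p = 0.212). The medians of the list were -0.57 and -0.98. Of 8 granins and genes of VGF processing or binding, 1 rose and 4 fell in Fabp4fl/fl and 1 rose and 2 fell in Fabp4CKO (medians -0.60 and -0.99). The gene that rose was C3ar1, a complement receptor that also binds a VGF peptide and is expressed by myeloid cells (log2 fold change 5.38, adjusted p = 0.000419, and 6.95, adjusted p = 0.00601). The granins Scg2 (-1.59, adjusted p = 0.00294) and Chgb (-1.57, adjusted p = 0.00778) fell most in Fabp4fl/fl, and were at -1.54 (adjusted p = 0.0323) and -0.95 (adjusted p = 0.113) in Fabp4CKO, where Scg5 was the other gene that fell (-1.10, adjusted p = 0.0367, edgeR).

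Of 12 activity-regulated genes, which neuronal firing induces as it does Bdnf, 2 rose and 5 fell in Fabp4fl/fl and 0 rose and 1 fell, Homer1 (-1.34, adjusted p = 0.0273, edgeR), in Fabp4CKO, with medians of -0.95 and -0.82. Junb (log2 fold change 1.17, adjusted p = 0.0129) and Crem (0.84, adjusted p = 0.00678) rose, and Egr2 (-1.86, adjusted p = 0.00862) and Nr4a1 (-1.59, adjusted p = 0.000615) fell most in Fabp4fl/fl. In Fabp4CKO none of these 4 passed, with Junb at 0.55 (adjusted p = 0.253), Crem at 0.55 (adjusted p = 0.114), Egr2 at -0.93 (adjusted p = 0.148) and Nr4a1 at -1.89 (adjusted p = 0.0569, quasi-likelihood test). In none of the 6 lists did a gene pass between the genotypes or in the interaction (edgeR).

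**Figure D5:**
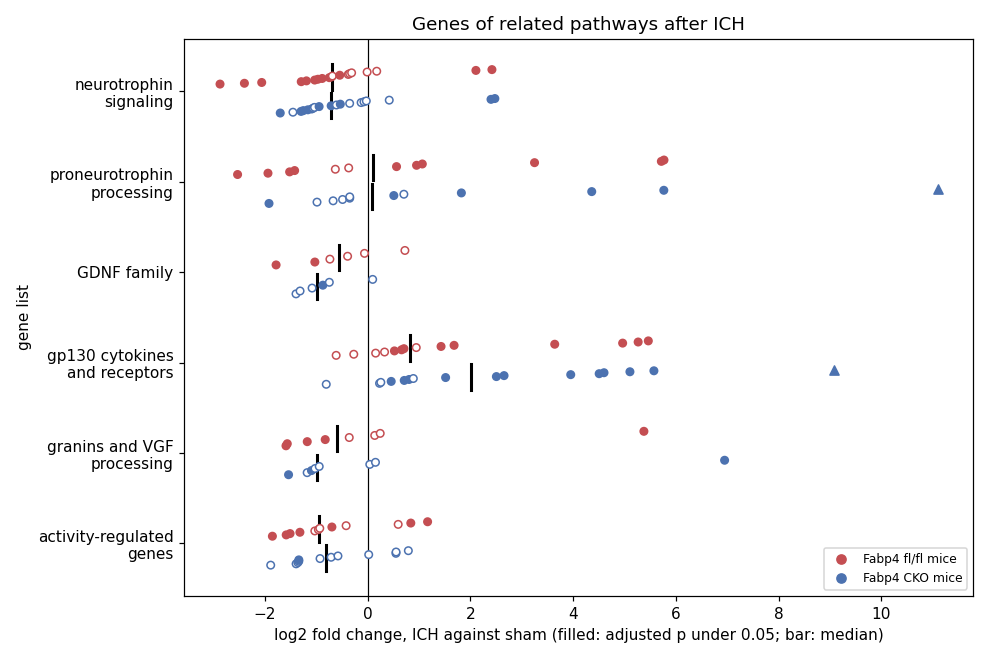
Log2 fold change of ICH against sham (horizontal axis) for the tested genes of 6 related lists in Fabp4fl/fl (red) and Fabp4CKO (blue), filled where the adjusted p was under 0.05, with the list's median as a bar. Triangles mark Mmp3 and Il6 in Fabp4CKO, whose sham libraries lay at or under 3 counts, so that their position is not a bound. The gp130 bars, 0.82 and 2.01, are over different genes, since Il6 and Il11 were tested only in Fabp4CKO.

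The genes most like each of the 9 over the 12 libraries were found from the root mean square difference of log2 CPM after centring each gene on its mean, among 15088 genes. For Ntrk2 Sp4 was among the 3 closest (0.125), against a median of 0.644 over all genes, and for Ntrk3 the closest were Hs6st2 (0.139), Grid1 and Klhl29, against 0.961. For Cntf the closest were Gbp3 (0.199) and Gbp7 (0.261), interferon-induced guanylate-binding proteins, and Rtp4 (0.321), against a median of 1.51. Lif was most like Nes (0.325), which encodes nestin, Ucn2 (0.343) and Cmklr1 (0.357), against 1.72. Ngfr was most like Ache (0.416), the acetylcholinesterase, Th (0.446), which encodes tyrosine hydroxylase, and Gm3020 (0.446), against 1.06. Ache fell in both genotypes (log2 fold change -0.77, adjusted p = 0.0135, and -1.98, adjusted p = 0.0180), and Th was at -0.04 (adjusted p = 0.907) in Fabp4fl/fl and -1.97 (adjusted p = 0.0388) in Fabp4CKO (edgeR). Vgf was most like Dlk2 (0.278), Isl1 and Gap43, and Gdnf most like Rundc1 (0.221), Gm45062 and Akap1. Bdnf and Ntf3 had no close match, with nearest distances of 0.601 for Bdnf (Sel1l3, then Spink8 and Dct) and 0.705 for Ntf3 (Htr5b, then C1ql3 and Nek10). Among the 9 themselves, Gdnf and Ntrk2 were closest (0.391), then Ntrk2 and Ntrk3 (0.508), and Lif and Ntf3 were furthest apart (3.02). These distances describe 12 libraries that share their groups and carry no test.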

How the data were processed

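RNA-seq libraries of 4 groups of 3 were grouped by their titles. Poly(A) RNA was sequenced on an Illumina NovaSeq, and the authors deposited estimated counts per gene (expected counts, not normalized) for 21956 genes. Per the labels, Bowtie2 2.2.8, HISAT2, StringTie 1.3.1 and DESeq2 were used. Their roles, the genome build and whether counting used strand are not given in the sources used here. Overlapping genes can therefore share reads.

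Counts were rounded and tested in R 4.3.3 with edgeR 4.0.16 (quasi-likelihood F-test on the 2 groups compared, TMM, filterByExpr with a minimum count of 10 and total of 15, Benjamini-Hochberg, threshold 0.05), and on all 12 libraries for the interaction. Alternatives were relative log expression, total counts, DESeq2 1.42.0, no filter, all 12 libraries, a replicate block and each library left out. Scripts were tested on simulated data. A floor of 3 counts per library covers counting error only. Depth was 15650813 to 22406216 counts. Lengths came from GENCODE and promoters from RefSeq. Replicates within a group differed by more than sampling noise. Figures used matplotlib 3.10.9 under Python 3.11.15.

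The 9 genes and all lists were chosen with earlier results of these data known. Of each related list, the 2 genes in each direction with the largest change among those past the threshold in Fabp4fl/fl were named, and likewise the 3 genes most like each of the 9; some of these genes are not reported here. Genes named outside this rule were chosen after their values were seen. Marker lists covered 11 cell types.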

Additional observations from a re-analysis of the deposited data

How the results depend on the processing

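The counts of the 9 genes called after ICH, 4 in Fabp4fl/fl and 5 in Fabp4CKO, stayed between 4 and 5 under relative log expression, total counts, DESeq2, no filter, all 12 libraries in one fit and the replicate block. With 1 library left out they ranged from 2 to 5 in Fabp4fl/fl and from 1 to 6 in Fabp4CKO, while the calls over all genes ranged from 4181 to 8165 and from 751 to 10099. Lif and Cntf were called in Fabp4fl/fl in each of these fits, and in Fabp4CKO in each except Lif without Sham-Fabp4CKO replicate 3. Between genotypes after ICH the count of 0 became 1 with DESeq2, in sham it ranged from 0 to 3 over the left-out libraries (3 without Sham-Fabp4fl/fl replicate 3, with 2862 calls over all genes), and in the interaction it became 2 with DESeq2. The cause was not tested. Same-numbered libraries are not paired by any label, and their deviations from the group means correlated between -0.608 and 0.359; with the replicate block the counts were 4, 5, 0, 0 and 0 in the 5 comparisons, and it changed no member's call. Values near 0 changed sign. The log2 fold change of Bdnf between genotypes after ICH was 0.40 with the block and -0.47 to 1.29 over the left-out libraries, and that of Ntrk3 was -0.36 to 0.63. In sham, Gdnf ranged from -0.068 to 0.66. In the interaction, Cntf was 0.019 with relative log expression, 0.023 with DESeq2 and 0.006 without the filter, and over the left-out libraries it ranged from -0.29 to 0.34, Ntrk3 from -0.66 to 0.32, Lif from -0.22 to 0.69 and Gdnf from -0.41 to 0.32. Depth limits Ntf3, which had at most 51 counts, and Lif and Cntf in sham, which had 10 to 34.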
